A study of Homo sapiens with 8 samples.

Results

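The experiment compared guide abundance in the Serpin B5 low bin with that in the bulk bin of a transcription factor (TF) screen. Its members are 4 of the 8 libraries of the series, chosen by their labels and table columns: a low and a bulk library from a table that also holds a high library (pair 1), and a low and a bulk library deposited in a table of their own (pair 2). All 4 came from AsPC-1, an established human pancreatic ductal adenocarcinoma line of classical type, made to express Cas9. The cells carried a pooled lentiviral library of guides aimed at DNA-binding domains. At day 8 of infection they were fixed with methanol, labelled with a Serpin B5 antibody and sorted, so that low cells held little of the protein and bulk cells an intermediate amount. Antibiotic selection followed infection in all of them, the labels name no drug, and each bin of each pair is 1 library from a pool of cells. A single cell line in culture was used, and what the Cas9 cut did to each gene was not measured. The labels give pair 2 a genome-wide genotype, but all of its 8739 guide names are those of the TF-focused library. The pairs are not labelled as replicates, so no p-value was computed and errors are the standard deviation (SD) over the guides of a gene.

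Serpin B5, also called maspin, is a serpin family protein of epithelial cells encoded by SERPINB5. In the study it served to read out KLF5, the zinc finger TF that maintains epithelial lineage programmes, and asked which factors the readout needed. In a sorted pool, a guide that lowers the stained protein moves its cells into the low bin, and a guide whose cells leave that bin becomes rarer there. TFs bind DNA through domains such as C2H2 zinc fingers, homeodomains, forkheads, basic leucine zippers and T-boxes, and the guides of this library cut in exons that encode such domains. A guide ratio was log2 of its count in low over its count in bulk, after scaling and with 5 added to each, set to 0 at the median gene-targeting guide of the pair. A gene score was the mean of the ratios of its guides, so positive scores stand for guides richer in low and negative ones for guides richer in bulk.

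The exons at the 2 ends of the ranking show what the guides were aimed at. KLF5 lies on chromosome 13 at 73054976 to 73077541 (hg38, plus strand, GENCODE release 44), and the names of all 6 of its guides give exon 4. NKX6-2, a homeobox factor of neural development, lies on chromosome 10 at 132783179 to 132786147 on the minus strand, and the names of all 5 of its guides give exon 2. The coding bases of these exons in that annotation are printed 5′ to 3′, at chr13:73075708-73075883 and chr10:132785280-132785452. In KLF5 the capitals mark the cysteine and histidine codons of the 2 C2H2 zinc fingers that a pattern search found in the exon, and in NKX6-2 they mark CpG dinucleotides.
KLF5 exon 4, coding part: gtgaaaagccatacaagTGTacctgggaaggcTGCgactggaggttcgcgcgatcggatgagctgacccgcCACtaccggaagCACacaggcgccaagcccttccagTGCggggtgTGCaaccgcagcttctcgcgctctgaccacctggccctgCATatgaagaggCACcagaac
NKX6-2 exon 2: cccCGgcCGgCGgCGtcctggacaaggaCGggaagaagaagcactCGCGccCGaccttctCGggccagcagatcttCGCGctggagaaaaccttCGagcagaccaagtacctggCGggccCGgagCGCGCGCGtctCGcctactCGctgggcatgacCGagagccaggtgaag
The KLF5 stretch has 176 bases, 61.4% of them G or C, with 12 CpG. The NKX6-2 stretch has 173 bases, 67.6% G or C, with 21 CpG. The files hold no guide sequences, so the cut of a single guide was not placed within these exons.

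The 4 libraries held 21222650 counts (pair 1 low), 38031483 (pair 1 bulk), 10026967 (pair 2 low) and 30756868 (pair 2 bulk), a mean of 1147 to 4352 per guide. Between 7 and 51 guides of a library had fewer than 30 counts. The library names 1445 genes, 50 non-targeting controls and 1 guide to Rosa26, a locus used as a negative control. A total of 8724 guides had a mean scaled count of at least 30 in both pairs, which gave 1439 genes with 2 to 13 guides and a median of 6. The other 6 genes (HEY2, NKX6-3, NR1D2, POU1F1, TGIF2LX and ZNF789) had 1 guide each and no score.

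The pairs were alike guide by guide. Across 8675 gene-targeting guides their ratios had a Pearson correlation of 0.973, and across the 49 control guides kept it was 0.976. Deviations of guides from the mean of their own gene correlated just as closely, at 0.973 over 8668 guides. These points are the same guides in both pairs, so a guide's own behaviour stands in both. The libraries of the same bin still differed by more than sampling noise. The chi-square statistic per degree of freedom was 21.6 between the 2 low libraries and 19.0 between the 2 bulk libraries, where sampling noise alone gives a value near 1. Whether the pairs came from the same sorted cells was not tested. Within a pair, low and bulk log2 counts correlated at 0.784 and 0.780, while low of pair 1 and low of pair 2 correlated at 0.982 and the bulk libraries at 0.979. A gene that passed in both pairs was therefore measured with the same guides, and the second pass is not a replicate of the first.

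Control guides, which have no target in the genome, moved between the bins too. Their ratios ran from −1.88 to 1.48 in pair 1 and from −2.15 to 1.34 in pair 2, with SDs of 0.82 and 0.74 and medians of −0.18 and −0.26. Of the 49, 8 were at least 1.5-fold richer in low in both pairs and 9 at least 1.5-fold richer in bulk, which is 16.3% and 18.4%. Among gene-targeting guides the shares were 17.1% (1482 guides) and 24.8% (2149 guides). A tail of strong loss from low was present among targeting guides, of which 333 were at or below −2 in both pairs against 15 at or above 2, and 0 of 49 controls lay past 2 on either side. With 0 of 49, shares of up to 6.12% (3 of 49) are allowed for controls, so the 3.84% among targeting guides is within that limit. The distribution of targeting ratios had a skewness of −0.86 in pair 1 and −0.85 in pair 2, and that of controls 0.00 and −0.01. The median gene score was −0.14 in pair 1 and −0.12 in pair 2, and the SD over genes was 0.50 and 0.46.

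A gene was called when its score was at least 1.5-fold in the same direction in both pairs and at least 3 in 4 of its guides lay on that side in both. Of the 1439 genes, 30 were richer in low (2.08%) and 134 richer in bulk (9.31%). In pair 1 alone the shares were 4.1% for low and 11.7% for bulk, and in pair 2 alone 2.78% and 10.4%. No gene passed 1.5-fold in opposite directions, and 1338 genes had the same sign in both pairs. The split between the directions turned with the centring: when ratios were set to 0 at the median control guide, all scores rose by 0.18 in pair 1 and 0.26 in pair 2, and 147 genes were then called in low and 51 in bulk, so that low took 74.2% of calls in place of 18.3%. The order of the genes is not touched by that choice, and the 2 ends of it are described next.

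**Figure D1:**
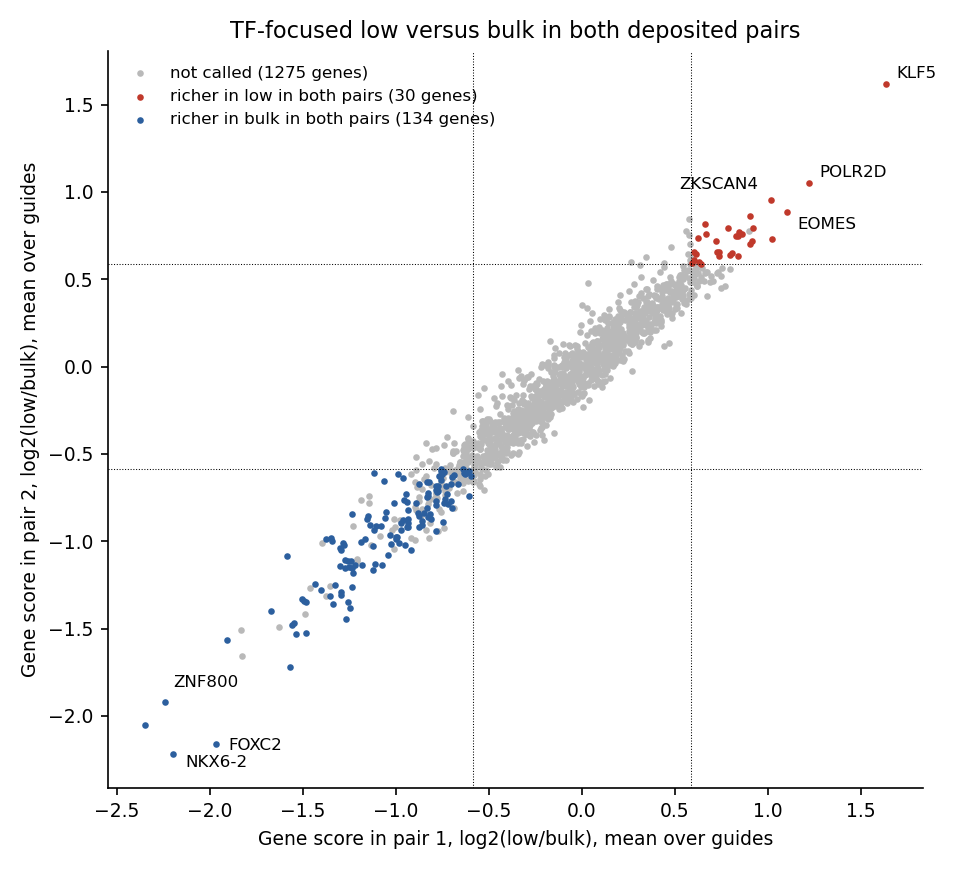
Gene score in pair 1 (horizontal) against gene score in pair 2 (vertical), both log2(low/bulk) as the mean over guides, for 1439 genes, with dotted lines at 1.5-fold. The 30 genes in red and 134 in blue are those called in both pairs, KLF5 is alone at the upper end at 1.63 and 1.62, and the points follow the diagonal, with the same guides in both pairs.

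KLF5 had the highest score in both pairs, 1.63 ± 1.34 in pair 1 and 1.62 ± 1.22 in pair 2 (SD, n = 6 guides), which is 3.10-fold and 3.07-fold. Its 6 guides together made up 1744 counts per 1000000 (CPM) of the pair 1 low library (95% exact binomial interval 1727 to 1762) and 461 CPM (454 to 468) of its bulk library. In pair 2 they made up 1531 CPM (1507 to 1555) of low and 434 CPM (427 to 441) of bulk. Intervals of this kind cover counting error alone, since reads are PCR copies without molecular identifiers. In the high library sorted with pair 1 the same guides held 386 CPM (374 to 399), below their share in both bulk libraries.

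Guide by guide, KLF5 fell into 2 groups. In pair 1 low the guides held 709, 467, 169.9, 292, 91.1 and 15.4 CPM, and in pair 1 bulk 108, 72.9, 37.4, 134, 88.6 and 19.7 CPM in the same order. In pair 2 low they held 593, 359, 176, 288, 91.5 and 23.2 CPM, and in pair 2 bulk 91.1, 65.3, 34.9, 131, 88.3 and 23.2 CPM. The first 4 guides were higher in both low libraries than in both bulk libraries, and the last 2 were at about the same share in each. Their ratios were 2.95, 2.92, 2.42, 1.36, 0.28 and −0.12 in pair 1 and 2.87, 2.63, 2.50, 1.31, 0.22 and 0.17 in pair 2. Those last 2 guides are named for the same exon as the other 4. Without its most enriched guide KLF5 still scored 1.37 in both pairs.

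POLR2D and POLR2A, which encode subunits of RNA polymerase II and serve as growth controls in this library, were also called in low. POLR2D had 2 guides, with 165 and 384 CPM in pair 1 low and 86.3 and 188 CPM in pair 1 bulk. They held 150.4 and 339 CPM in pair 2 low, and 78.6 and 192 CPM in pair 2 bulk. Both guides were higher in low in both pairs, and the score was 1.22 ± 0.06 and 1.05 ± 0.08 (SD, n = 2 guides). KLF5 and POLR2D were the only genes called in low that passed 2-fold in both pairs. POLR2A scored 0.83 ± 0.69 and 0.75 ± 0.61 over 8 guides, 7 of them positive in each pair.

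EOMES, a T-box factor known from T cells and early development, was higher in low with every guide. Its 7 guides lay between 75.6 and 361 CPM in pair 1 low and between 56.2 and 197 CPM in pair 1 bulk, and between 89.9 and 339 CPM in pair 2 low and 61.1 and 212 CPM in pair 2 bulk. All 7 guides had positive ratios in both pairs, from 0.66 to 1.55 in pair 1 and from 0.39 to 1.37 in pair 2. The score was 1.10 ± 0.31 and 0.88 ± 0.31 (SD, n = 7 guides). In the high library the guides averaged 120.0 CPM, near the 116 and 125 CPM of the bulk libraries.

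The other leading genes in low were lower in score and of mixed families. ZKSCAN4, a zinc finger protein with KRAB and SCAN domains, scored 1.02 ± 0.76 and 0.96 ± 0.94 over 6 guides, and its guides averaged 271 CPM in low against 147 CPM in bulk in pair 1. ZHX3, a zinc finger and homeobox repressor, scored 0.90 ± 0.55 and 0.86 ± 0.54 with all 6 guides positive. TFE3, a regulator of lysosome and autophagy genes, scored 0.86 ± 0.43 and 0.76 ± 0.41 with 6 of 6 guides positive in both pairs. PIAS2, a SUMO ligase, scored 0.92 ± 0.73 and 0.80 ± 0.55 with 5 of 6 guides positive. FOXD4, a forkhead factor, scored 1.02 ± 0.46 and 0.73 ± 0.40 over 4 guides. The KRAB zinc finger genes ZNF138 and ZNF649 scored 0.85 ± 0.36 and 0.77 ± 0.29 over 4 guides and 0.84 ± 0.32 and 0.75 ± 0.35 over 6.

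**Figure D2:**
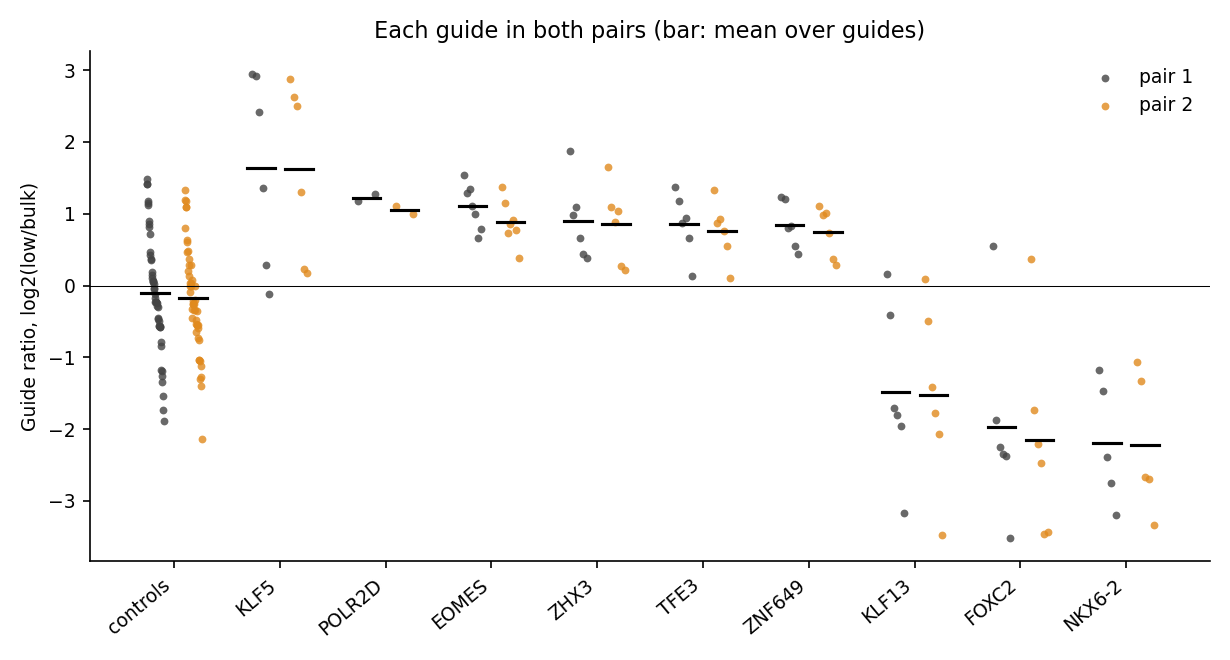
Guide ratios, log2(low/bulk), of the 49 control guides and of the guides of 9 genes, with pair 1 in grey and pair 2 in orange, each point 1 guide and each bar the mean over guides. Control guides spread from −2.15 to 1.48, the 7 EOMES guides lie above 0 and the 5 NKX6-2 guides below −1 in both pairs, and KLF5 has 4 high guides and 2 near 0.

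At the other end, NKX6-2 scored −2.20 ± 0.86 and −2.22 ± 0.97 (SD, n = 5 guides), a share 4.59 and 4.66 times as high in bulk as in low. Its guides held 40.4, 11.7, 7.07, 8.34 and 2.92 CPM in pair 1 low and 108, 38.5, 44.8, 67.4 and 33.3 CPM in pair 1 bulk. In pair 2 they held 45.7, 10.6, 7.38, 7.28 and 3.19 CPM in low and 108, 30.5, 54.5, 54.8 and 39.1 CPM in bulk. Every guide was rarer in low than in bulk in both pairs. Together they made up 70.4 CPM (66.9 to 74.1) of pair 1 low, 292 CPM (287 to 297) of pair 1 bulk and 189.96 CPM (181 to 199) of the high library, which lay between the other bins.

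FOXC2, a forkhead factor of mesenchyme and lymphatic vessels, scored −1.97 ± 1.35 and −2.16 ± 1.41, and its guides averaged 21.8 CPM in low and 68.5 CPM in bulk in pair 1. ZNF800 scored −2.24 ± 1.97 and −1.92 ± 1.80 over 5 guides, of which 1 was positive in each pair. POU4F2, a POU homeobox factor of sensory neurons, scored −1.57 ± 1.35 and −1.72 ± 1.56, with 6 of 6 guides negative in both pairs. ELF5, an ETS factor of mammary and placental epithelium, scored −1.67 ± 1.51 and −1.40 ± 1.14, also with 6 of 6 negative.

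The leucine zipper genes ATF1, of the CREB family, and ATF7 scored −1.91 ± 1.59 and −1.56 ± 1.58, and −1.56 ± 1.14 and −1.48 ± 1.00. KLF13, a zinc finger relative of KLF5, scored −1.48 ± 1.19 in pair 1 and −1.52 in pair 2, opposite in sign to KLF5 and with 5 of 6 guides negative. TLX3, a homeobox factor of the spinal cord, scored −1.55 ± 1.59 and −1.47 ± 1.40, and ZNF425 scored −1.54 ± 1.23 and −1.53 ± 1.18, each with 5 of 6 guides negative.

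The 2 sets differed in how their guides agreed. The rule asks for a mean past 1.5-fold and 3 in 4 guides on that side, so this agreement is not free of the rule. Ratios of targeting guides were also skewed towards bulk, as given above. The median SD over guides was 0.55 in both pairs for the 30 genes in low, 0.95 and 0.88 for the 134 in bulk, and 0.82 and 0.72 over all genes scored. All guides lay on the called side in both pairs for 14 of 30 and for 34 of 134. Among all 1439 genes, called or not, every guide was on the low side in both pairs for 53 and on the bulk side for 42. Called scores ran from 0.59 to 1.63 in pair 1 on the low side, with 2 genes past 2-fold in both pairs, and 48 genes passed 2-fold in both pairs on the bulk side. Without the rule on guides, 33 genes passed 1.5-fold in low and 214 in bulk. When the guide that moved most was left out of each gene, 13 genes stayed called in low and 83 in bulk. Among the 13 were KLF5, POLR2D, POLR2A, EOMES, ZKSCAN4, ZHX3, PIAS2, TFE3, FOXD4, ZNF138, ZNF649 and MTA3. Just inside the 1.5-fold line stood SP100 (0.59 and 0.59) and LEUTX (0.64 and 0.59), and just outside it ZBTB1 (0.58 and 0.70) and ZNF614 (0.58 and 0.61). On the bulk side SP5 (−0.64 and −0.59) and ZNF786 (−0.76 and −0.59) were just inside, and INSM1 (−0.64 and −0.58) and ISL2 (−0.58 and −0.62) just outside.

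The growth-control genes, which encode proteins that dividing cells need, moved in both directions. Of 8, 2 (25%) were called in low (POLR2D and POLR2A) and 2 (25%) in bulk, against 2.08% and 9.31% over all genes. The median scores of the 8 were 0.00 and 0.03, beside −0.14 and −0.12 over all genes. RPA3, a subunit of the single-strand DNA binding complex of replication, scored −1.34 ± 1.39 and −1.36 ± 1.38, and PCNA, the replication clamp, −1.19 ± 0.75 and −1.13 ± 0.86, each over 4 guides. The ribosomal protein gene RPL9 scored 0.42 ± 0.21 and 0.29 ± 0.21. RPL23A had guides at 1.86, 0.17 and −3.49 in pair 1 and at 1.78, 0.05 and −3.35 in pair 2, so that its score of −0.48 and −0.51 averaged a rise and a loss. The kinase genes CDK1 (−0.02 and 0.01) and CDK9 (0.03 and 0.04) were near 0.

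Lists of stress and leucine zipper factors had medians well below those of all genes. Like the other lists, they were chosen with earlier results of these data known. Of 9 NRF2 and CNC factors, which bind antioxidant response elements with small MAF proteins, 3 were called in bulk (BACH2, MAFG and NFE2L1) and 0 in low, with median scores of −0.88 and −0.67. NFE2L2, which encodes NRF2 itself, was not called: it scored −1.40 ± 2.18 and −1.01 ± 1.84, with 3 of 5 guides negative. Of 21 genes of the AP-1, ATF and MAF families, 5 were called in bulk, among them ATF7, JUND, MAFG and FOSL2, and 0 in low, and the medians were −0.56 and −0.52. JUND, an AP-1 subunit, scored −1.49 ± 0.81 and −1.34 ± 0.88 with 5 of 5 guides negative. Against the 9.31% of all genes called in bulk, 33.3% and 23.8% of these lists were called, and MAFG is in both. The median coding GC content was 57.3% for the NRF2 and CNC list and 64.4% for the AP-1, ATF and MAF list. Over all genes it was 55.5%, and its part in these lists was not tested.

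KLF5 stood apart from its own family. Of 17 KLF genes it was the 1 called in low (5.88%, against 2.08% over all genes). KLF4, KLF13 and KLF15 were called in bulk (17.6%, against 9.31% over all genes). In this family 12 genes were negative in both pairs, beside 826 of all 1439. The family medians were −0.48 and −0.47. KLF16 scored −1.37 ± 1.34 and −1.31 ± 1.22, with 5 of 7 guides negative, and was not called. Of 9 SP genes, the relatives that bind similar GC-rich boxes, SP3 and SP5 (22.2%) were called in bulk, and the medians were −0.34 and −0.37. The median coding GC content was 56.6% for KLF and 61.4% for SP genes, against 55.5% over all genes. Within the KLF family it was 74.2% for KLF13, 63.2% for KLF15 and 55.5% for KLF5. The part of GC content in these scores was not tested.

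The germline or neural, HOX and SOX lists had median scores below those of all genes. Their shares called in bulk lay on both sides of the 9.31% over all genes. Among all 1439 genes, 826 were negative in both pairs. Of 30 genes listed as germline or neural factors, 5 (16.7%) were called in bulk and 0 in low. The 5 were POU4F2, NEUROD6, POU4F1, MYF6, which is a muscle factor, and NEUROG3, also a factor of pancreatic endocrine progenitors. In this list 23 genes were negative in both pairs, and the medians were −0.34 and −0.38. Of 39 HOX genes, 3 (7.69%) were called in bulk, HOXB2 and HOXC11 among them, 30 were negative in both pairs and the medians were −0.29 and −0.27. Of 20 SOX genes, SOX2 and SOX30 (10.0%) were called in bulk and the medians were −0.30 and −0.37. The lists were chosen with earlier results of these data known. NKX homeobox genes were not a list of their own, and this group was picked after its values here were seen. A total of 13 NKX genes were scored. Of these, 7 (53.8%) were called in bulk (NKX2-1, NKX2-3, NKX2-4, NKX2-5, NKX2-6, NKX2-8 and NKX6-2), 12 were negative in both pairs, and the medians were −0.86 and −0.88. The median coding GC content was 65.9% for the germline or neural list, 62.5% for HOX, 68.0% for SOX and 70.8% for NKX genes, against 55.5% over all genes. Among all genes, the group of 288 with the highest coding GC content had median scores of −0.33 and −0.35, and 18.1% of it was called in bulk. The part of GC content in these lists was not tested.

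The lineage lists of pancreatic cancer had median scores close to those of all genes. Of 23 classical pancreatic lineage factors, PTF1A, an acinar factor, was called in bulk (−0.77 ± 0.94 and −0.71 ± 0.79), which is 4.35% of the list, and 0 in low, with medians of −0.15 and −0.19. Of 17 genes listed as basal and squamous factors, TP73, SOX2 and TWIST1 (17.6%) were called in bulk, against 9.31% over all genes. In low 0 were called, and the medians were −0.18 and −0.20. TWIST1 is a factor of mesenchymal cells, so the 17.6% is not a share of basal factors alone. It scored −1.03 ± 1.08 and −0.96 ± 0.93.

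Lists called in low alone had 1 to 3 such members, where 2.08% of all genes were called in low. Of 17 T-box genes EOMES (5.88%) was called. In this list 12 genes were positive in both pairs, beside 512 of all 1439, and the medians were 0.27 and 0.17. TBX19, a pituitary factor, scored 0.73 ± 0.63 and 0.54 ± 0.50 without being called. Of 33 corepressor and chromatin genes, 3 (9.09%) were called in low, MTA3 and LCOR among them, and 0 in bulk, with medians of 0.06 and 0.08. MTA3, a subunit of the NuRD deacetylase complex, scored 0.72 ± 0.48 and 0.72 ± 0.45 with 6 of 6 guides positive. ARID1B, a subunit of the BAF remodeller, scored 0.80 ± 0.76 and 0.56 ± 0.43 with 6 of 6 positive, and missed the line in pair 2. Of 21 STAT, IRF and REL genes, STAT6 (4.76%), a mediator of interleukin signals, was called in low. It scored 0.74 ± 0.59 and 0.66 ± 0.58 with 7 of 7 guides positive, and the list medians were 0.11 and 0.05.

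The remaining lists had calls on both sides, in bulk alone or none, where 2.08% of all genes were called in low and 9.31% in bulk. Of 43 forkhead genes, 2 (4.65%) were called in low (FOXD4 and FOXJ1) and 5 (11.6%) in bulk (FOXC2, FOXD1, FOXK2, FOXN4 and FOXO6). Their medians were −0.15 and −0.20. ETS genes had ERG (3.70%) in low and ELF5 and SPIB (7.41%) in bulk of 27, with medians of −0.18 and 0.02. ZBTB genes had ZBTB6 and ZBTB12 (4.76%) in low and ZBTB10 and HIC1 (4.76%) in bulk of 42, with medians of 0.01 and 0.09. Of 24 housekeeping promoter factors, SNAPC4 (4.17%) was called in low and SP3 and THAP11 (8.33%) in bulk, with medians of 0.11 and 0.05. Of 46 nuclear receptors scored, NR1H2 and NR4A3 (4.35%) were called in bulk and 0 in low, with medians of 0.11 and 0.04. No member was called among 4 TEAD genes (medians −0.24 and −0.22), 14 SMAD, TGIF and ID genes (0.00 and −0.08), 13 genes of the MYC, MAX and MXD network (0.14 and 0.01), 11 E2F and DP genes (0.14 and 0.07), 4 TCF and LEF genes (0.27 and 0.18) or 7 coactivator and SAGA genes (−0.29 and −0.06). All list medians rise with control centring by the shift given above, which takes those of the TEAD, SMAD, coactivator, forkhead, classical and basal lists above 0 in at least 1 pair and leaves those of the NRF2, AP-1, KLF, SP, SOX, HOX and neural lists below 0. Called members beyond the 4 that the naming rule allows a list were named because they were called.

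**Figure D3:**
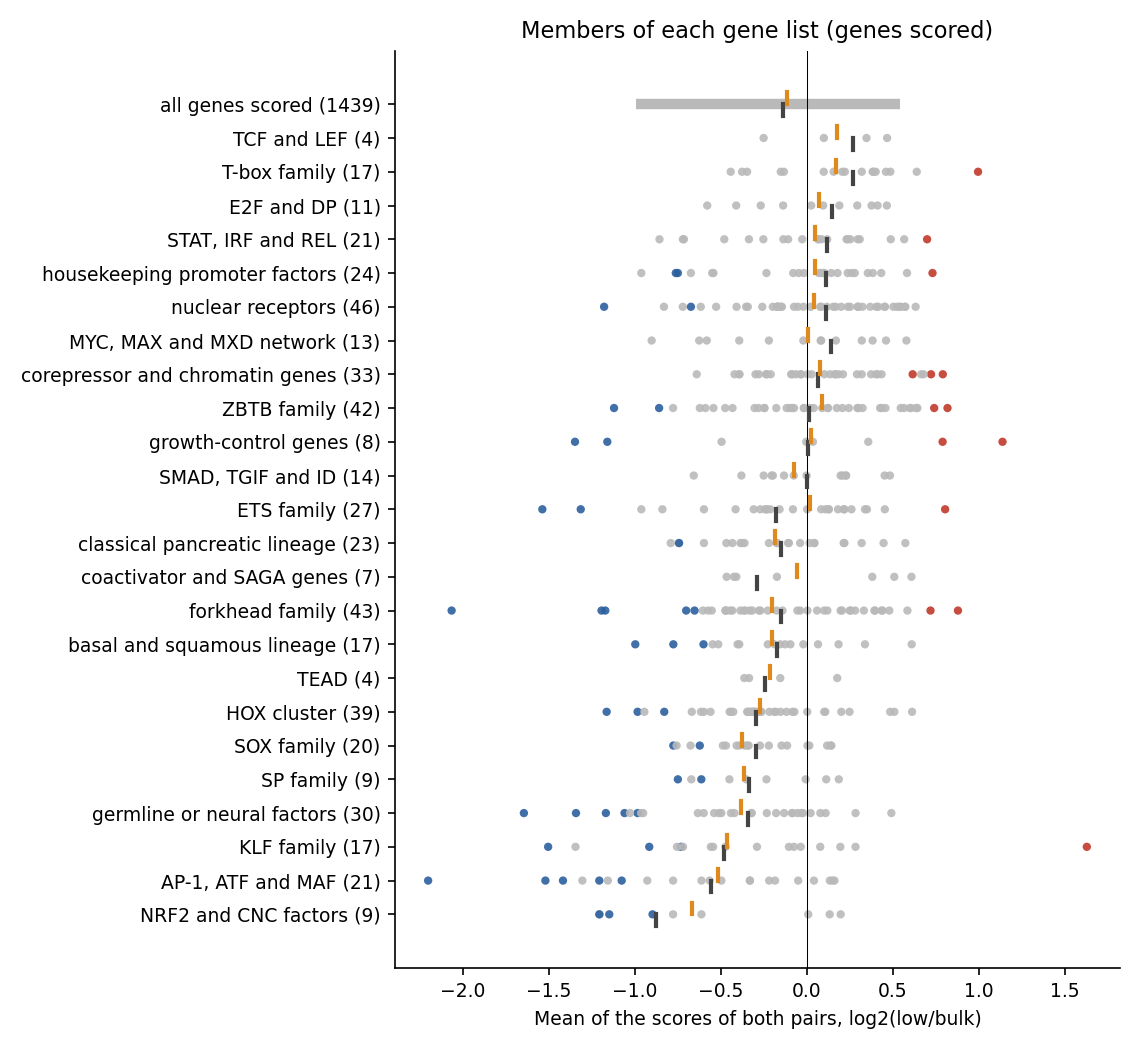
Mean of the 2 pair scores, log2(low/bulk), for every scored member of each gene list, with genes called in low in red, in bulk in blue and not called in grey. Vertical marks are list medians in pair 1 (dark) and pair 2 (orange), the grey bar in the top line spans the 5th to 95th percentile of all 1439 genes, and KLF5 is the lone red point at 1.63 in its family.

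The genome-wide screen of the series, in the same line and bins but with another guide library and other sequencing libraries, gave a second measurement of 1433 of these genes. Scored in the same way, it called 0.696% of 19113 genes in low and 0.00523% in bulk. Among the 30 genes called in low in both TF-focused pairs, 3 were also called there. KLF5 scored 2.89 ± 0.25 (SD, n = 4 guides) and had the second highest score of all genes, POLR2D scored 0.72 ± 0.14 and POLR2A 0.72 ± 0.17, each with 4 of 4 guides positive. Of the 134 genes called in bulk, 0 were called in either direction. The median genome-wide score was 0.03 for the 30 genes, −0.01 for the 134 and 0.00 for all of these genes. EOMES was at −0.10 ± 0.11, ZHX3 at −0.16 ± 0.12, and NKX6-2 at 0.01 ± 0.21. PCNA and RPA3 were both at 0.49, with 4 of 4 guides positive, where the TF-focused pairs had them in bulk. Over 1433 genes the mean TF-focused score and the genome-wide score had a Pearson correlation of 0.08 and a Spearman correlation of 0.03.

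Of the 1439 genes, 11 were called in low genome-wide, and the 8 besides KLF5, POLR2D and POLR2A were not called in the TF-focused pairs. TADA2B, a subunit of the SAGA coactivator complex, came nearest, with 1.27 ± 0.23 genome-wide and 0.67 ± 0.24 and 0.54 ± 0.18 over 3 positive guides in the pairs. TFAP2A, an epithelial AP-2 factor, had 1.15 ± 0.47 genome-wide and −0.38 and −0.41 in the pairs. ZBTB7A, a repressor, had 0.93 ± 0.35 genome-wide and −0.09 and −0.11 in the pairs. The AP-1 subunits JUNB and FOSL1 had 0.89 ± 0.48 and 0.82 ± 0.23 genome-wide, JUNB had −0.27 and −0.17 in the pairs, and FOSL1 had 0.16 and 0.11. NFIC (0.63 ± 0.14) and SOX9 (0.59 ± 0.16) were at −0.05 and −0.10, and at −0.34 and −0.38, in the pairs. Of these, TFAP2A, ZBTB7A, JUNB, FOSL1, NFIC and SOX9 were named after their values were seen.

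**Figure D4:**
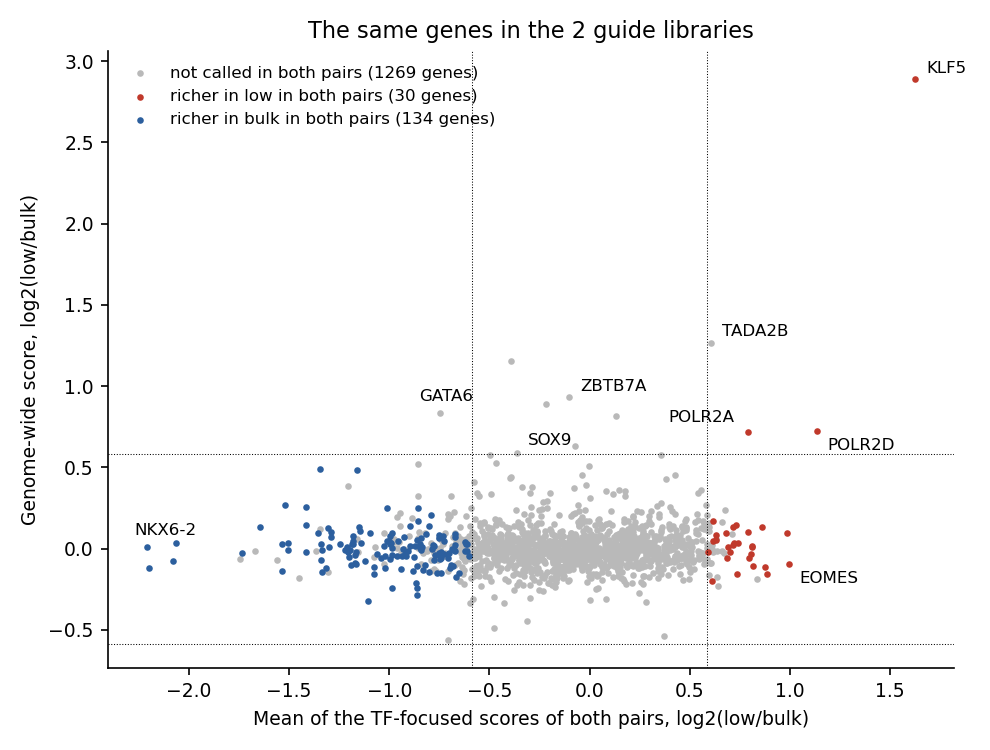
Mean TF-focused score of both pairs (horizontal) against genome-wide score (vertical), both log2(low/bulk), for 1433 genes, with dotted lines at 1.5-fold. KLF5, POLR2D, POLR2A and TADA2B, which was not called in both pairs, stand past 1.5-fold on both axes, the 134 genes in blue lie within 1.5-fold genome-wide, and GATA6 lies on opposite sides.

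Called genes differed in coding GC content, which the rule did not use, and in bulk count, which the score holds as its denominator. The median coding GC content was 49.1% for the 30 genes in low, 62.6% for the 134 in bulk and 55.5% for all genes scored. In 5 equal groups of genes by coding GC content, the median score fell from 0.01 in pair 1 and 0.05 in pair 2 in the lowest group to −0.33 and −0.35 in the highest. The share called in bulk was 4.17%, 5.92%, 8.33%, 10.1% and 18.1% from the lowest to the highest group, and 2 of the 30 genes in low were in the highest. Across 1438 genes the score and GC content had a Pearson correlation of −0.23 in pair 1 and −0.31 in pair 2, and the genome-wide score had 0.01 with it over 1432. The median genome-wide score of every group lay between −0.01 and 0.00. The median CPM of a gene in pair 1 bulk was 138 for genes called in low, 88.8 for genes called in bulk and 113 over all, although the bulk count is the denominator of the score. In 5 equal groups of genes by mean bulk CPM, the share called in bulk was 23.6%, 13.9%, 3.8%, 3.1% and 2.1% from lowest to highest. The lowest group held 68 of the 134 genes called in bulk. Genes called in low numbered 4, 0, 1, 11 and 14 in the same order. The ratio of a guide in 1 pair and its bulk count in the other had a Spearman correlation of 0.35 and 0.34 over 8675 guides. Bulk log2 counts of the pairs correlated at 0.979, so the count in the other pair is not independent of the denominator. The part of guide composition and abundance in the calls was not tested.

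**Figure D5:**
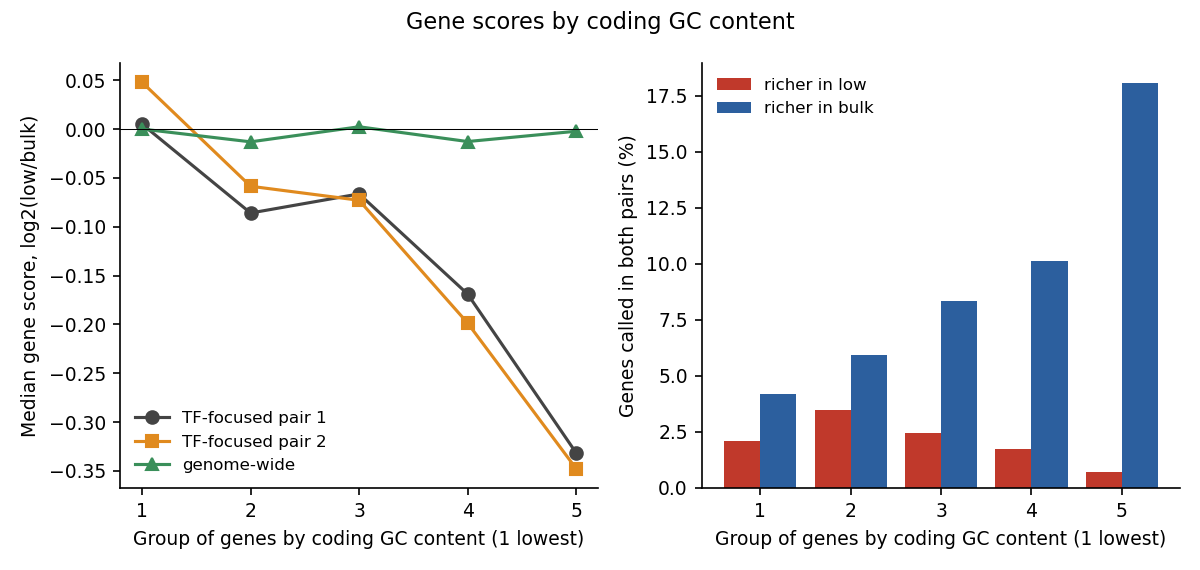
Left, median gene score, log2(low/bulk), in 5 equal groups of genes by coding GC content for both TF-focused pairs and the genome-wide screen, and right, the percentage of genes called in both pairs in each group. TF-focused medians fall to −0.33 and −0.35 in the highest group, where 18.1% of genes were called in bulk and 0.694% in low, and the genome-wide medians stay near 0.

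With scores centred within the 5 groups by coding GC content, an alternative chosen after seeing the data, 30 genes were called in low, 20 of them as before. In bulk 122 were called, 104 of them as before. With guide ratios centred within 10 groups of the bulk count of the other pair, 27 were called in low, 18 of them as before, and 95 in bulk, 77 of them as before. KLF5 was called in low under both, at 1.56 and 1.57 with the GC centring and at 2.00 and 1.88 with the abundance centring. Of the 432 scored genes with a ZNF name, 4 were called in low (0.926%, against 2.08% over all genes) and 32 in bulk (7.41%, against 9.31%), with medians of −0.08 and −0.05.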

How the data were processed

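Sequencing libraries came from a 1-step PCR on genomic DNA of the sorted cells. The authors deposited raw counts per guide, without normalization. MAGeCK and hg38 are named in the submitters' processing notes, with no step given for either. MAGeCK was not used here. The high library is described as bulk in its label but titled high, and the title was followed. Genes were read from guide names, since the deposited gene column cuts the names of 79 guides. From the counts, libraries were scaled by median-ratio size factors within a pair, guides with a mean scaled count under 30 in a pair were left out, and ratios used a pseudocount of 5. Scores needed at least 2 guides. The scoring (Python 3.11.15, pandas 2.3.3, numpy 2.4.6) was tested on simulated counts. With 1 library per bin no test between conditions exists, and calls describe these libraries. The comparisons, the 24 gene lists and their members were chosen with earlier results of these data known. Text names KLF5, the growth controls, up to 12 called genes per direction, up to 4 members per list and genes also called genome-wide, and says where it goes beyond. Gene positions and coding GC content came from GENCODE release 44 on hg38. Alternatives changed scaling, filter, pseudocount, centring, gene summary, fold, guide rule, pairs and gene naming. The values of some genes that the naming rule covers are not reported here.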

Additional observations from a re-analysis of the deposited data

Results flagged for a closer look

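GATA6, a classical pancreatic lineage factor, moved in opposite directions in the 2 guide libraries, and this difference was not tested. Its score was −0.81 ± 1.45 in pair 1 and −0.68 ± 1.16 in pair 2 of the TF-focused screen (SD, n = 6 guides), and 0.83 ± 0.52 genome-wide (SD, n = 4 guides). In pair 1 its guides had ratios of 0.84, 0.50, 0.15, −1.98, −2.33 and −2.05, so that 3 were positive and 3 were at or below −1.98. In pair 2 the ratios were 0.66, 0.28, 0.14, −1.64, −1.55 and −1.96 in the same order. All 4 genome-wide guides were positive. GATA6 was not called in the TF-focused pairs, because its guides were split.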

How the results depend on the processing

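The count of 30 genes in low became 147 when ratios were centred on non-targeting controls, 131 at a lower fold line, 2 at 2-fold, 13 without the guide furthest in the direction of the score, 59 in pair 1 alone and 52 with the counts of both pairs summed. The count of 134 in bulk became 51 with control centring, 214 without the rule on guide signs, 48 at 2-fold and 83 without the furthest guide. Under every other alternative run both counts stayed within 1.5 times, among them total-count scaling, filters of 0 and 100, pseudocounts of 1 and 20, the median over guides, which gave 41 in low and 108 in bulk with 21 and 95 shared, and the deposited gene column. KLF5 was called in low under all of these, and its score ranged from 1.37 to 2.00 in pair 1 and from 1.37 to 1.90 in pair 2 over 12 alternatives. Without its furthest guide, MAX turned from −0.66 and −0.60 to 0.0900 and 0.00436, and GRHL3 in pair 2 turned from 0.65 to −0.0416. Of 2590 other values of named genes, 2574 moved by less than the SD over guides. No paired analysis was possible because each bin is 1 library and the labels give no replicate numbers. The mean count per guide was 1147 or more, but reads are PCR copies, the number of cells behind a guide is not given, and the 2 pairs share guides, so neither pair gives the error of a repeated sort.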
